A study of Arabidopsis thaliana with 25 samples.

Results

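Glutathione S-transferases (GSTs) join the tripeptide glutathione to reactive or foreign compounds, which marks these for export to the vacuole, and they also bind and carry small plant metabolites without conjugating them. The tau (GSTU) and phi (GSTF) classes are specific to plants and are the largest GST classes of Arabidopsis thaliana. Many of their genes are known to be induced by herbicide safeners, oxylipins, salicylic acid or hydrogen peroxide, in part through TGA bZIP factors that bind the as-1 element. The 41 genes described here were chosen by identifier, 28 of the tau class (GSTU1 to GSTU28) and 13 of the phi class (GSTF2 to GSTF14), from the 27206 nuclear protein-coding genes of the count table; membership follows class and locus number, not a value in these libraries.

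The measurements came from roots of 8-week-old plants of the Col-0 accession and of 2 mutants in that background, phf1 and phr1 phl1, grown in greenhouse pots of soil from a long-term fertilization field. PHF1 helps phosphate transporters leave the endoplasmic reticulum, and PHR1 and PHL1 are the transcription factors behind most of the phosphate starvation response. Soils came from plots with low, medium or high phosphorus (P) fertilization, and in the low+P regime 12.6 mg P per pot was added to low P soil during growth. There were 3 libraries each of Col-0 and phf1 in low, medium and high P, 2 each of Col-0 and phf1 in low+P, 2 of phr1 phl1 in low P and 1 labelled phr1 phl1 low+P, or 25 libraries in 10 groups. Each library came from 1 root system, taken from a separate pot. The letters A, B and C tell the libraries of a group apart and carry no order.

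The libraries held 2368981 to 7408960 counts, and levels are given as CPM, counts per 1000000 counts of the library, so that members at a few CPM rest on few reads. For PHR1 both phr1 phl1 low P libraries, at 31.9 and 37.9 CPM, were below all others. The single low+P library with the phr1 phl1 label had 73.6 CPM, a Col-0 level, and so went against its label. Among the tests it enters only that across the 6 low P and low+P groups and the shared estimate of spread, and it is among the 25 libraries of the levels, correlations and spread described below. PHF1 (9 to 29.1 CPM in phf1, 14.8 to 46.9 CPM in Col-0) and PHL1 (79.3 and 95.9 CPM in phr1 phl1 low P) had counts in their mutants and did not check the labels. PHL1 was lowest of all 25 libraries in Col-0 low P C, at 13.9 CPM against 63.6 and 62.8 CPM in libraries A and B. That library also had the highest PHF1 level, and it enters every comparison with Col-0 low P. The reason was not tested. The counts of the library with the doubtful label were also the closest of 300 library pairs to those of another library, phf1 low+P A. Of 12 root marker genes, 5 had counts in all 25 libraries, and the summed level of the 12 ran from 239.9 CPM in Col-0 medium P A to 1485 CPM in Col-0 low P C. This sum rests mostly on PHO1 (median 506.5 CPM) and ABCB4 (179.2 CPM), with SHR next at 46.5 CPM and CASP1 at 18.9 CPM. It therefore follows mainly PHO1 and ABCB4 and is not a measure of root cell content. Of 8 green shoot markers (light-harvesting and Rubisco small subunit genes), 6 had counts in all 25 libraries. Their summed level was 18.2 to 1708 CPM, highest in phf1 high P A, and 462.4 to 632.2 CPM in phf1 medium P.

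All 41 members were in the table, and GSTU15, GSTU16, GSTF5 and GSTF12 were too low to be tested in any fit. GSTU15 had 9 counts in all, GSTF5 9, GSTF12 27 and GSTU16 38. The phi class took a larger share of the counts than the tau class in every library. Phi members together made up 0.181% to 1.26% of the counts and tau members 0.0538% to 0.11%. Of 13 phi genes, 6 had a mean of at least 100 CPM, as had 2 of 28 tau genes, while 15 tau genes had a mean from 1 to 10 CPM and 3 a mean below 1 CPM.

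**Figure D1:**
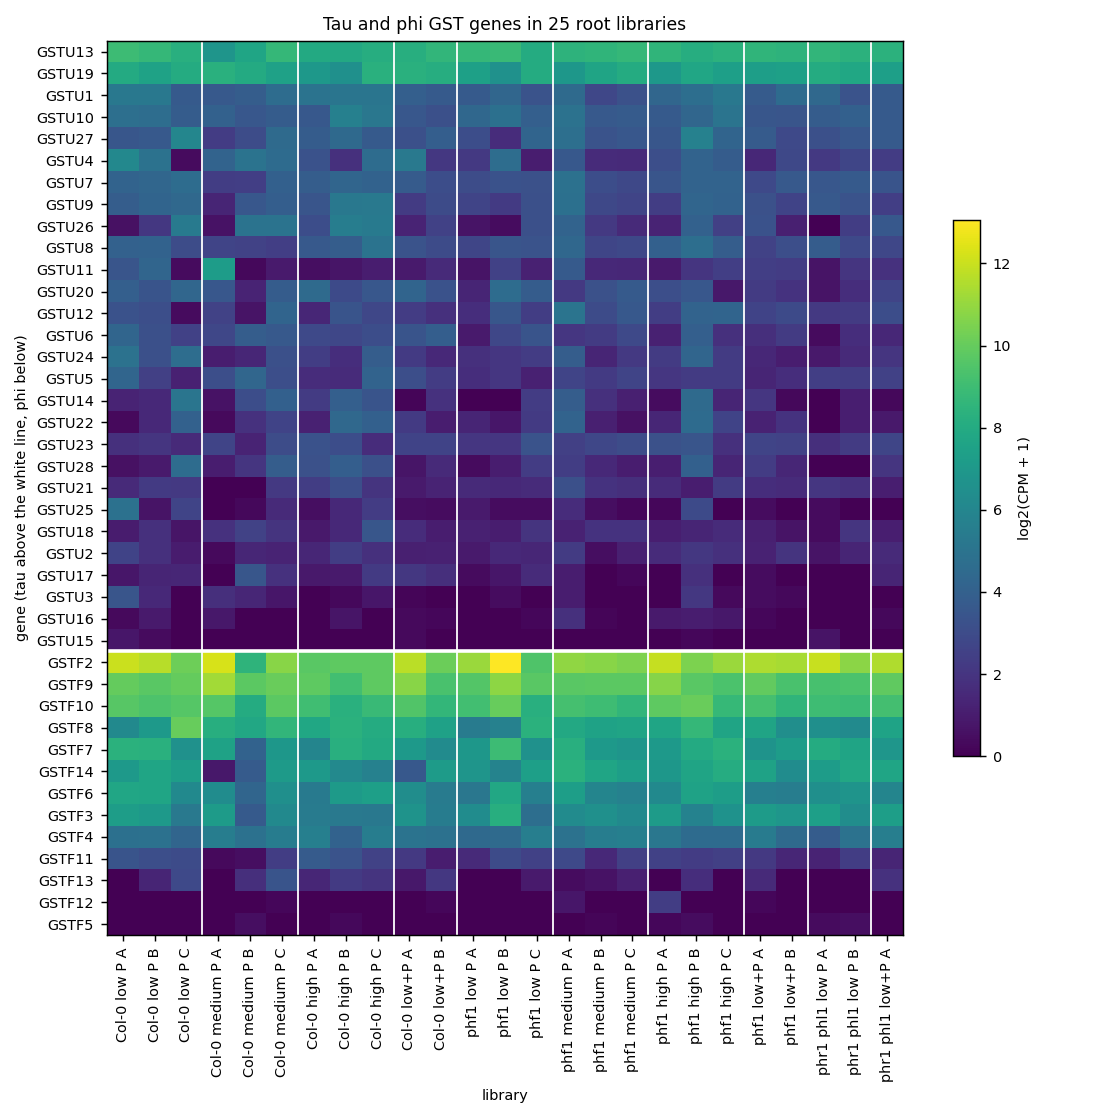
Levels of the 41 members as log2(CPM + 1), 1 column per library in 10 groups separated by white lines, 28 tau genes above and 13 phi genes below the thick white line, each class in order of mean CPM. GSTF2, GSTF9 and GSTF10 are high in all libraries, while most tau genes stay at a few CPM and differ between libraries of a group.

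To compare genes with each other, mean CPM was divided by the exon length in the TAIR10.1 annotation. GSTF2 (AT4G02520), a phi GST known to bind auxin and camalexin, was at 1657 CPM per kb, ahead of GSTF9 (AT2G30860) at 810 and GSTF10 (AT2G30870, ERD13, early responsive to dehydration) at 529.1 CPM per kb. GSTU13 (AT1G27130) at 263 and GSTU19 (AT1G78380), the safener-inducible tau GST, at 184.4 CPM per kb were the most abundant tau members. The next tau member, GSTU1 (AT2G29490), was at 17.7 CPM per kb. GSTF8 (AT2G47730), known for a stress-inducible promoter that responds to hydrogen peroxide, was at 99.1 CPM per kb.

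GSTF2 alone was 19.9% to 68.1% of the phi counts, and its level spread widely among replicates. It was at 4139, 3224 and 1176 CPM in Col-0 low P, at 4923, 361.4 and 1735 CPM in medium P, at 835.8, 914 and 899.8 CPM in high P and at 3356 and 1129 CPM in low+P. In phf1 it was at 2206, 8594 and 704.8 CPM in low P and at 2841 and 2580 CPM in low+P. The Col-0 high P libraries lay close together, and the low P libraries of each genotype spread over a range that overlapped its low+P libraries. Per library, GSTF9 ran from 544.9 CPM in Col-0 high P B to 2407 CPM in Col-0 medium P A, and GSTF10 from 261.2 CPM in Col-0 medium P B to 1079 CPM in phf1 high P B. GSTU13 was at 505.6, 408.9 and 304.5 CPM in Col-0 low P and at 295.6 and 385.2 CPM in Col-0 low+P, with its lowest level, 112.2 CPM, in Col-0 medium P A. GSTU19 was at 250.4, 183.3 and 266.6 CPM in Col-0 low P and at 311.9 and 281.5 CPM in low+P. Low P was the lower group without overlap, but the fitted log2 fold change was -0.34 ± 0.37 (SE, unadjusted p = 0.387 in edgeR's quasi-likelihood test). The share of all genes that were lower in this way is given below.

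Near-identical gene copies limit how far single members can be told apart with reads of 50 bases. GSTF2 and GSTF3 are 94.5% identical over their coding sequences, and 2.46% of the 50-base stretches of GSTF2 exons also occur in GSTF3. GSTF6 and GSTF7 are 94.3% identical and share 9.03% of the GSTF6 stretches, with a longest identical run of 116 bases. The other members with shared stretches were GSTU17 with GSTU18, and GSTU8 with a gene outside both classes. The sequences below, read from the TAIR10.1 genome by gene identifier and numbered from the first base of the coding sequence, show what separates the most abundant pair. The first is a run that GSTF2 and GSTF3 have in common (bases 163 to 236), in which a read cannot be assigned to either, and the others are the 50-base window with the most differences (bases 335 to 384), with the 8 differing bases in capitals.
GSTF2 and GSTF3: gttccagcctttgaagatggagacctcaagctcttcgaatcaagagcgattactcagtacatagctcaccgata
GSTF2: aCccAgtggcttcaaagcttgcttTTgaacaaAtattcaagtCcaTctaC
GSTF3: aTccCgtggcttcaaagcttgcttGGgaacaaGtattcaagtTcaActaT
GSTF3 followed GSTF2 across the 25 libraries (Pearson r = 0.97 of log2(CPM + 1)) at a mean of 92.7 against 1657 CPM per kb, and what part of this is misassigned reads was not tested. The libraries were not stranded, and 8 members are overlapped by a gene on the opposite strand (GSTU2, GSTU6, GSTU7, GSTU10, GSTF2, GSTF10, GSTF11 and GSTF12), whose reads cannot be told from theirs.

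The comparison of Col-0 low P with low+P asked which members differed with the P supplied to the same soil. Members of the tau class led it: GSTU24 (AT1G17170) and GSTU25 (AT1G17180), both known to conjugate the explosive TNT, and GSTU9 (AT5G62480), GSTU10 (AT1G74590), GSTU7 (AT2G29420) and GSTU21 (AT1G78360) were higher in every low P library than in both low+P libraries, as was the phi member GSTF11 (AT3G03190), which is linked to aliphatic glucosinolate synthesis. None of these differences passed edgeR's test adjusted over all genes, and DESeq2 passed those of GSTU24, GSTU9 and GSTU25. Of 37 members tested, 30 had a log2 fold change above 0, with a median of 0.97, where the median over all 18830 genes was 0.02 and 52.2% of them were above 0.

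GSTU24 was at 29.3, 8.28 and 24.6 CPM in Col-0 low P (mean 20.7 ± 11, SD, n = 3) and at 3.64 and 1.80 CPM in low+P. The groups did not overlap, and the fitted log2 fold change was 2.90 ± 0.65 (SE, adjusted p = 0.381 in edgeR's quasi-likelihood test). GSTU25, its neighbour in the genome, was at 28.8, 0.613 and 5.50 CPM in low P and at 0.405 and 0.36 CPM in low+P. Library A held 116 of its 135 low P counts, against 5 counts in low+P, and the fitted log2 fold change was 4.82 ± 1.49 (SE, adjusted p = 0.463). The pooled ratio was 33.7, with a 95% interval of 14.1 to 106 that covers counting error only, not the spread between libraries, and 7.76 (2.8 to 26.6) without library A. GSTU9 was more even, at 13.4, 17.5 and 20.7 CPM in low P and at 3.91 and 7.02 CPM in low+P, with a log2 fold change of 1.69 ± 0.45 (SE, adjusted p = 0.416). GSTU24, GSTU25 and GSTU9 belong to a group of genes that the study selected on these libraries. The group is high in Col-0 low P and in neither mutant. Their levels in Col-0 low P and in the mutants are therefore no independent evidence of a direction.

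GSTU10 was at 26.8, 24.8 and 12.9 CPM in Col-0 low P, above 10.5 and 8.10 CPM with added P (log2 fold change 1.18 ± 0.37, SE). GSTU7 was at 16.9, 19.0 and 23.6 against 12.7 and 7.38 CPM (0.97 ± 0.38). GSTF11 was at 9.69, 7.66 and 6.80 against 3.51 and 1.08 CPM (1.74 ± 0.72). In each of these 3 genes the groups did not overlap, and each is also overlapped by a gene on the opposite strand. GSTU21 was at 1.99, 3.68 and 3.56 against 0.945 and 1.44 CPM, at 7 to 12 counts per library. GSTU3 (AT2G29470) had 40, 6 and 0 counts in low P and 1 and 0 in low+P. Its pooled ratio of 57.5 (95% counting interval 9.81 to 2320) came mainly from library A, without which it was 12.2 (1.49 to 563), and its groups overlapped.

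In number, 8 of the 37 tested members (21.6%) were higher in Col-0 low P at an unadjusted p below 0.05, beside 3.56% of all genes, and 0 were lower, beside 3.7%. Of the 8, 7 belonged to the tau class, as did 26 of the 37 tested. By the libraries alone, 7 members (18.9%) were higher in all 3 low P than in both low+P libraries, beside 8.37% of genes, and 4 (GSTF4, GSTU17, GSTU19 and GSTU23) were lower, beside 10.7%. GSTU24, GSTU25 and GSTU9, which the study selected on these libraries, are in the 8 and in the 7. Both counts are therefore no independent evidence of an excess. With adjustment over all genes, edgeR called 0 members at an adjusted p of 0.1 and 1 gene in all (0.00531%), and DESeq2 called GSTU24, GSTU25 and GSTU9 among 289 genes (1.54%). Leaving out Col-0 low+P B gave 3 members at an unadjusted p below 0.05, and leaving out phf1 low P B, which only enters the shared spread, gave 11, with 4 when all 25 libraries were fitted together. The shares of all genes at that p are not given for these settings, here or below. Such counts therefore do not show a change particular to the members. The root markers were summed at 842.3 to 1485 CPM in Col-0 low P and at 701.3 and 927.2 CPM in low+P, a sum that rests mostly on PHO1 and ABCB4. Over the 25 libraries it went with GSTU7 and GSTU9 (r = 0.76 and 0.74 of log2 values). For GSTU21, GSTF11, GSTU24 and GSTU25 r was 0.69, 0.58, 0.57 and 0.515, and for GSTU10 it was 0.32. The part of the root markers in these differences was not tested, and in whole roots fewer cells of a type cannot be told from less RNA per cell.

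**Figure D2:**
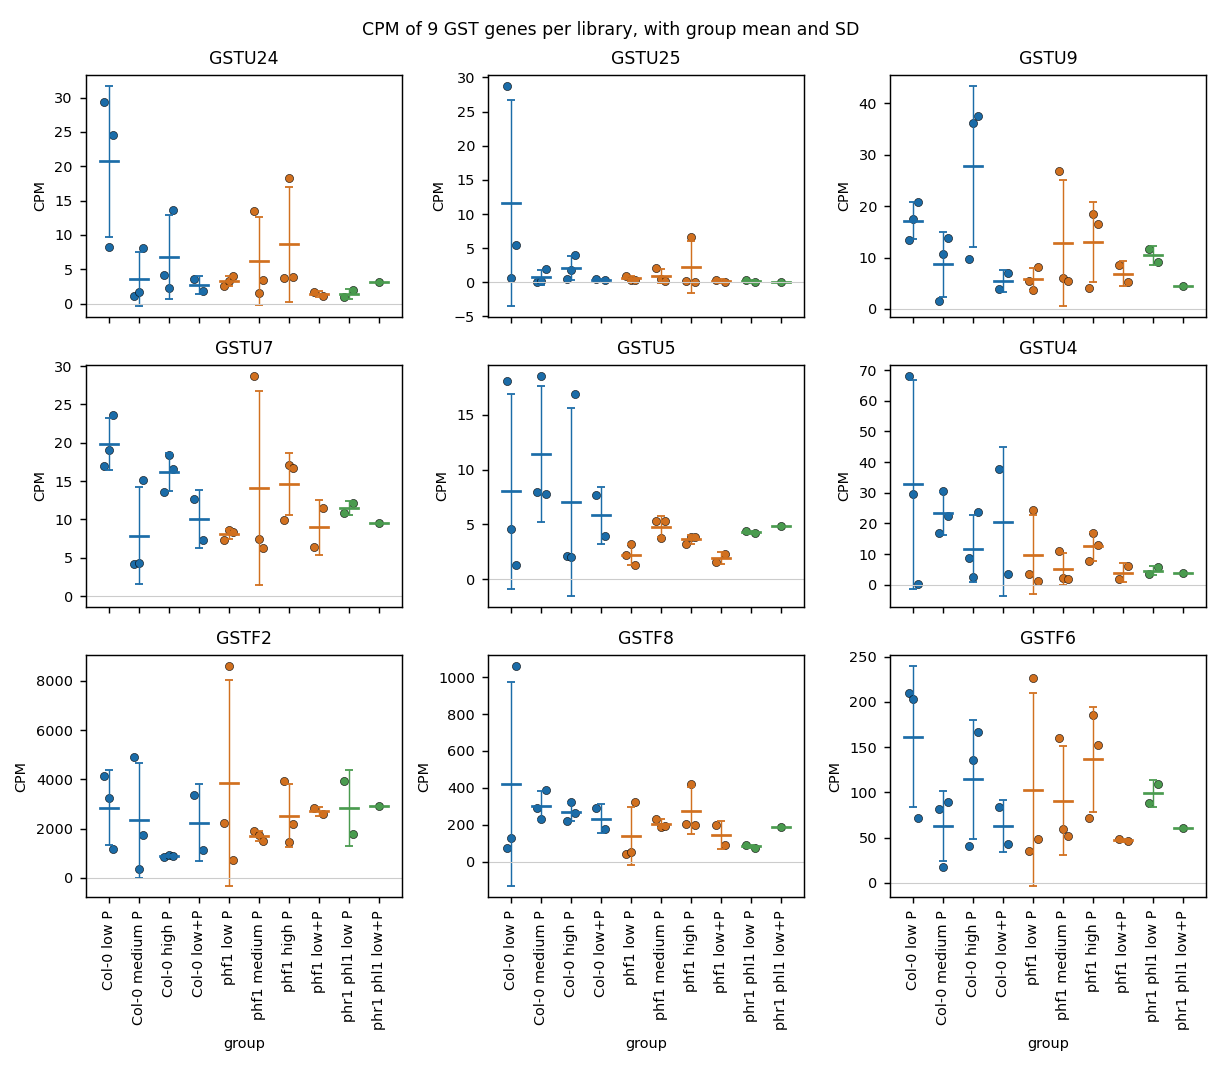
CPM of 9 members in every library (points), by group, with the group mean (thick bar) and SD (error bars), Col-0 in blue, phf1 in orange and phr1 phl1 in green, on linear axes. GSTU24 reaches 29.3 CPM and GSTU25 28.8 CPM in Col-0 low P, the GSTU5 points of phf1 stay at or below 5.35 CPM, and GSTF8 has 1 Col-0 low P library at 1059 CPM.

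The promoters of these members were searched for TGACG, the core of the as-1 element, on both strands from 250 bases before to 50 bases after the annotated gene start in TAIR10.1. It occurred in 17 of 41 members (41.5%), 13 of 28 tau and 4 of 13 phi genes, and in 23.1% of 26718 genes of the table. The 8 members above were taken from these data, with GSTU9, GSTU24 and GSTU25 selected by the study on the same libraries. As a description only, 5 of the 8 held TGACG (GSTU3, GSTU7, GSTU9, GSTU24 and GSTU25), as did 12 of the other 33. Windows of 30 bases around the match, on the strand of the gene and with the match in capitals (CGTCA is TGACG on the opposite strand), show these sites and how their flanks differ. The GSTU7 match is 1 of 3 there, and it overlaps one on the opposite strand, since its tgacgtca reads the same on both.
GSTU24, 169 bases before the start: tccaaagcatgcTGACGcaggcagtggcct
GSTU25, 87 bases before: ctaaataatctcTGACGacttttaaactaa
GSTU9, 144 bases before: attggggttttgTGACGattgtcgagtttg
GSTU9, 99 bases before: atgatttacacaCGTCAtaaagactcttct
GSTU7, 52 bases before: gttcgtcactggTGACGtcaccattctttc
GSTU3, 105 bases before: cacatttgaaagTGACGgcaatgatgaaca
A match describes these letters only, and binding was not measured.

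In phf1 the same regimes were compared, and the members were spread evenly around 0: 18 of 37 had a log2 fold change above 0 in low P against low+P, with a median of -0.00. GSTU10 alone was higher at an unadjusted p below 0.05 (1 of 37 members, 2.7%, beside 0.494% of all genes), at 19.8, 27.4 and 14.5 CPM against 10.3 and 9.81 CPM (log2 fold change 1.01 ± 0.37, SE, adjusted p = 1 in edgeR), and 0 were lower, beside 0.404%. The count of 1 was 0 without phf1 low P B or phf1 low+P B and 2 without phf1 low P A or Col-0 low P B. EdgeR and DESeq2 called 0 members and 0 genes. By the libraries alone GSTU10, GSTU24 and GSTU25 were higher in all 3 phf1 low P libraries than in both low+P libraries (8.11% of members, beside 6.71% of genes) and GSTU21 was lower (2.7%, beside 5.55%). GSTU24 was at 2.55, 3.25 and 4.00 CPM in phf1 low P and at 1.74 and 1.04 CPM in low+P, levels near those of Col-0 low+P. GSTU9 was at 5.42, 3.61 and 8.17 CPM against 8.55 and 5.22 CPM, and these overlapped. In the test of the difference between the 2 genotypes' responses, 2 members (GSTU9 and GSTU3) had a larger Col-0 response at an unadjusted p below 0.05, beside 1.75% of genes, and GSTU17 a smaller one, beside 2.15%. This count of 3 was 5 without Col-0 low P C or phf1 low P B, and 1 without phf1 low+P B, without the library with the doubtful label or with all 25 libraries in 1 fit. For GSTU9 the difference was 1.95 ± 0.61 on the log2 scale (SE, adjusted p = 1), and 0 members and 0 genes were called by edgeR. By DESeq2, 16 genes and 0 members were called, so that a difference between genotypes in the response was not shown for any member. GSTU9 was also among the genes that the study selected for a Col-0 low P level that neither mutant shared.

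**Figure D3:**
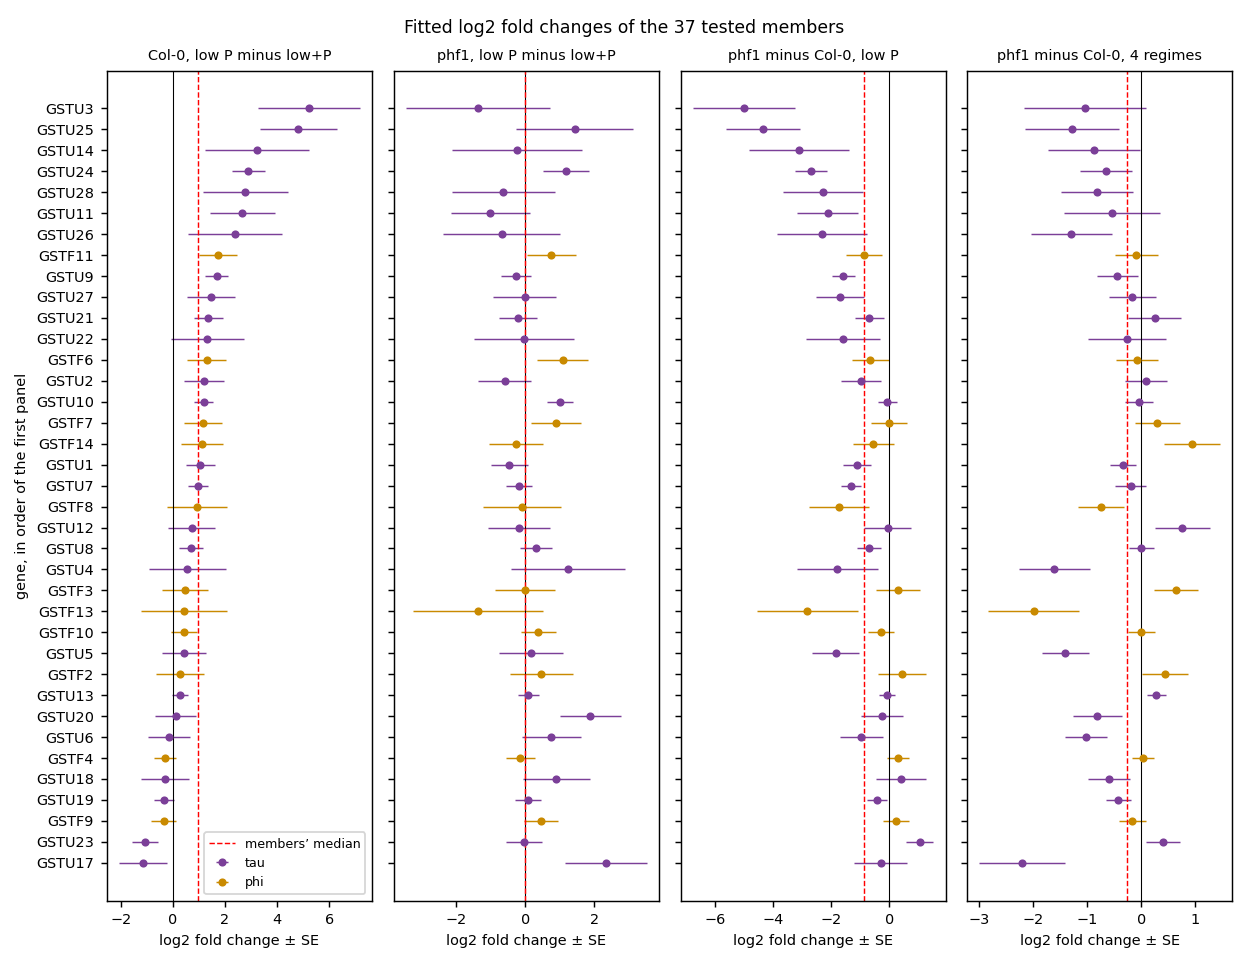
Fitted log2 fold changes ± SE of the 37 tested members in 4 comparisons, in the order of the Col-0 low P minus low+P panel, tau in purple and phi in gold, with the members' median as a dashed red line. The median is 0.97 in Col-0 and -0.00 in phf1 for low P minus low+P, and -0.87 for phf1 minus Col-0 in low P, and the Col-0 low P libraries enter each panel except that of phf1 alone.

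Within low P soil the mutants were compared with Col-0, using the same 3 Col-0 low P libraries as above, so that these values are not independent of that comparison. GSTU24, GSTU25 and GSTU9, which enter the counts, were also selected by the study for levels that were high in neither mutant. In phf1, 31 of 37 members had a log2 fold change below 0 (median -0.87, over all genes -0.00), and 24 of these were tau genes of 26 tested. GSTU24 (2.55 to 4.00 CPM in phf1), GSTU9 (3.61 to 8.17 CPM) and GSTU7 (7.34 to 8.65 CPM) were lower in all 3 phf1 than in all 3 Col-0 libraries, or 8.11% of members beside 3.88% of genes. GSTU23 was the only member higher in all 3 phf1 libraries (2.7%, beside 3.56%). At an unadjusted p below 0.05, 7 members were lower in phf1 (18.9%, beside 2.9% of genes) and 0 higher (beside 1.75%), and they were GSTU24, GSTU9, GSTU7, GSTU25, GSTU3, GSTU5 and GSTU1. GSTU24 had a log2 fold change of -2.69 ± 0.56 (SE, adjusted p = 0.84 in edgeR). Adjusted over all genes, edgeR called 0 members and 1 gene (0.00531%), and DESeq2 called GSTU24 among 29 genes (0.155%).

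In phr1 phl1 low P, GSTU24 was at 0.877 and 1.90 CPM, GSTU25 had 1 count in both libraries together, and GSTU20 (AT1G78370), a tau GST that binds the jasmonate-conjugating enzyme JAR1, was at 0.585 and 2.28 CPM against 14.7, 9.50 and 19.1 CPM in Col-0. GSTU3, GSTU17, GSTU28 and GSTF13 had 0 counts in both libraries, a limit of 0.495 CPM at 3 counts over the group. Against that limit Col-0 low P was at least 8.95-fold higher for GSTU3, 2.53-fold for GSTU17, 15.4-fold for GSTU28 and 4.86-fold for GSTF13. Except for GSTU17 these bounds rested on 1 library: GSTU3 had 40 of its 46 Col-0 low P counts in library A, GSTU28 74 of 79 and GSTF13 20 of 25 in library C. Without that library the bounds were 1.91-fold for GSTU3 and 1.39-fold for both GSTU28 and GSTF13, and without its highest library 2.27-fold for GSTU17. Of 37 members, 31 had a log2 fold change below 0, with a median of -0.87. Over all genes the median was -0.03, and 47.8% were above 0. Setting these 4 members to their bounds from all 3 Col-0 libraries could not move the members' median, because those bounds all lie below it. At an unadjusted p below 0.05, 7 members were lower (18.9%, beside 4.6% of genes) and 0 were higher (beside 2.94%). By the libraries alone, 12 members (32.4%, beside 14% of genes) were lower in both phr1 phl1 than in all 3 Col-0 libraries and 0 were higher (beside 12.7%). The log2 fold change of GSTU24 was -3.92 ± 0.73 (SE, adjusted p = 0.448 in edgeR). The study's selection on these libraries bears on GSTU24 and GSTU25 here too. No member and no gene was called by edgeR, and DESeq2 called GSTU24, GSTU28 and GSTU20 among 183 genes (1.04%). Without phr1 phl1 low P A the count at an unadjusted p below 0.05 was 3, and without Col-0 low P C it was 11.

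Across the 6 low P and low+P groups together, 9 members (24.3%, beside 3.6% of genes) had an unadjusted p below 0.05, led by GSTU24 with an adjusted p of 0.529 in edgeR, which called 0 members and 0 genes. DESeq2 called GSTU24, GSTU25 and GSTU9 among 209 genes (1.12%). These 3 are among the genes that the study selected with the same kind of test on these groups. Their call repeats that selection and is no independent evidence. The count of 9 was 3 without Col-0 low P A, 5 without Col-0 low P B, 4 or 5 without 1 of the phr1 phl1 low P libraries, and 4 with all 25 libraries in 1 fit.

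Across the field regimes, low P was compared with medium and high P. Against medium P, 25 of 36 tested members were higher in Col-0 low P (median log2 fold change 0.71), beside 51.3% of all genes (median 0.01). At an unadjusted p below 0.05, 5 were higher (13.9%, beside 3.63% of genes) and 0 lower (beside 4.28%): GSTU8, GSTU24, GSTU25, GSTU7 and GSTF11. The Col-0 low P libraries are the same as in the comparison with low+P. The study selected GSTU24 and GSTU25 on them for a high level there, so these genes are no independent evidence here. GSTU24 was at 1.06, 1.63 and 8.11 CPM in Col-0 medium P, so its highest medium P library was just below its lowest low P library at 8.28 CPM. GSTF11 was at 0.265, 0.408 and 4.15 CPM in medium P, below all 3 low P libraries. EdgeR called 0 members and 1 gene (0.00541%), and DESeq2 374 genes (2.04%) but 0 members. The count of 5 was 2 without Col-0 medium P B and 10 without Col-0 low P C or Col-0 medium P C. Calls depended on Col-0 medium P C: without it GSTU7 (log2 fold change 2.22 ± 0.40, SE, adjusted p = 0.0779), GSTF11 (adjusted p = 0.0754) and GSTU21 (adjusted p = 0.0838) were called by edgeR, as were 198 genes (1.08%). The root marker sum was 239.9 and 525.5 CPM in the 2 medium P libraries that remained and 1086 CPM in library C, and its part in these calls was not tested.

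Against high P, 23 of 36 members were higher in Col-0 low P, beside 51.8% of all genes. Of the members, 0 passed an unadjusted p of 0.05 either way (beside 2.97% of genes higher and 3.11% lower). This 0 was not stable: it was 8 without Col-0 low P C, 0 to 4 with any other Col-0 library left out, 6 in DESeq2 and 3 with all 25 libraries in 1 fit. Without the shares of all genes in the same settings, these counts do not show a rise particular to the members. GSTU9 was at 9.71, 36.2 and 37.5 CPM in Col-0 high P, and GSTU10 at 11, 50.1 and 34.9 CPM, reaching above their low P libraries. GSTF2 had the largest low P excess among the abundant members, with a log2 fold change of 1.78 ± 0.83 (SE, adjusted p = 0.819 in edgeR). In phf1 only GSTU5 had an unadjusted p below 0.05, lower in low than in medium P at 2.23, 3.25 and 1.27 against 5.32, 3.72 and 5.35 CPM (1 of 36 members, 2.78%, beside 1.85% of genes lower and 1.31% higher). Against high P in phf1 there were 0 such members (beside 0.924% of genes higher and 1.96% lower). Without phf1 low P C these counts were 6 against medium P and 5 against high P, and over the other libraries left out they were 0 to 2 and 0 to 4. EdgeR called 0 members in these 3 comparisons, in which it called 1 gene (0.00541%), 0 and 0, and DESeq2 called 0 members among 151, 3 and 6 genes.

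phf1 and Col-0 were then compared over the 4 P regimes, with 11 libraries each. GSTU5 (AT2G29450), a tau gene known for its induction by auxin, had the smallest p of the members and was at 1.29, 7.69 and 18.6 CPM (lowest, median, highest) in Col-0 and at 1.27, 3.25 and 5.35 CPM in phf1. Its highest phf1 library was therefore below the Col-0 median, while the lowest libraries of both genotypes were alike. The log2 fold change was -1.41 ± 0.44 (SE, adjusted p = 0.248 in edgeR, 0.0664 in DESeq2). The members next to it by locus number, GSTU6 (AT2G29440, median 8.28 CPM in Col-0 and 3.76 CPM in phf1) and GSTU4 (AT2G29460, 22.4 and 6.05 CPM), had log2 fold changes of -1.03 ± 0.38 and -1.61 ± 0.66. GSTU17 (AT1G10370), which is linked to light and drought responses, had 0 counts in 1 Col-0 and 4 phf1 libraries and medians of 1.62 and 0.319 CPM. GSTF13 (AT3G62760) had 0 counts in 2 Col-0 and 5 phf1 libraries. In all, 5 of 37 members were lower in phf1 at an unadjusted p below 0.05 (13.5%, beside 6.23% of genes) and 0 higher (beside 5.75%), and the median was -0.27 against -0.01 over all genes. EdgeR called 0 members and 5 genes (0.0263%), DESeq2 called GSTU5 among 540 genes (2.84%). Without phf1 low P C or Col-0 medium P C the count of 5 was 8. Without Col-0 medium P C, edgeR called GSTF14 as higher in phf1 (log2 fold change 1.64 ± 0.42, SE, adjusted p = 0.0993), among 253 genes called (1.33%). The green shoot markers were summed at up to 1708 CPM in phf1 and up to 102.2 CPM in Col-0, and their part in these differences was not tested.

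Replicates of a group differed more in these genes than in most others. Over 36 members with a mean of at least 1 CPM the median SD within groups was 0.93 on the log2(CPM + 1) scale, where it was 0.45 over 18779 genes, at a median level of 11.2 against 20.6 CPM. Groups accounted for a median of 37.4% of the members' sum of squares, beside 37.1% over all genes and 37.5% given by the degrees of freedom alone. GSTF11 had the highest share, 63.6%, and GSTU11 the lowest, 19.5%.

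Single libraries carried the extremes. GSTU11 (AT1G69930) was at 150.7 CPM (568 counts) in Col-0 medium P A and at no more than 18.4 CPM elsewhere. GSTF14 (AT1G49860) was at 0.796 CPM (3 counts) in that same library, 12.7 CPM in Col-0 medium P B and 11.1 CPM in Col-0 low+P A, with a median of 145.7 CPM over all libraries. Col-0 medium P A was also the library with the lowest root marker sum, with which GSTF14 went together over the libraries (r = 0.74). GSTF8 was at 73.1, 126.6 and 1059 CPM in Col-0 low P, its lowest and highest Col-0 levels in 1 group. GSTF12 (AT5G17220, TT19), which carries anthocyanins to the vacuole, had 22 counts in phf1 high P A and 5 in all other libraries together. The anthocyanin genes DFR and LDOX were at 3.56 and 1.13 CPM in phf1 high P A, which also had the highest green marker sum. In phf1 medium P B they were at 5.38 and 0.827 CPM, where GSTF12 had 0 counts.

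Members went together in blocks across the 25 libraries. Correlations are of log2(CPM + 1) and are given as a description, since points share libraries and depth, and the blocks were formed from the same values by average linkage at a mean r of 0.4. The tightest block of more than 5 genes held GSTU14, GSTU22, GSTU26, GSTU27, GSTU28, GSTF8 and GSTF13, with r from 0.49 to 0.88 over its 21 pairs (median 0.73). After the group means were taken out the median was 0.81, so the block lay within groups too. In Col-0 low P, for example, GSTU28 was at 0.497, 0.919 and 23.9 CPM, GSTU26 at 0.497, 3.37 and 41.1 CPM and GSTU14 at 1.49, 1.84 and 32.4 CPM, with library C the high one each time. GSTF2 ran the other way, at r from -0.72 to -0.47 with the 7 genes, and library C had its lowest Col-0 low P level. GSTF2, GSTF3, GSTF9, GSTF10 and GSTU11 formed a second block (median r 0.51).

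**Figure D4:**
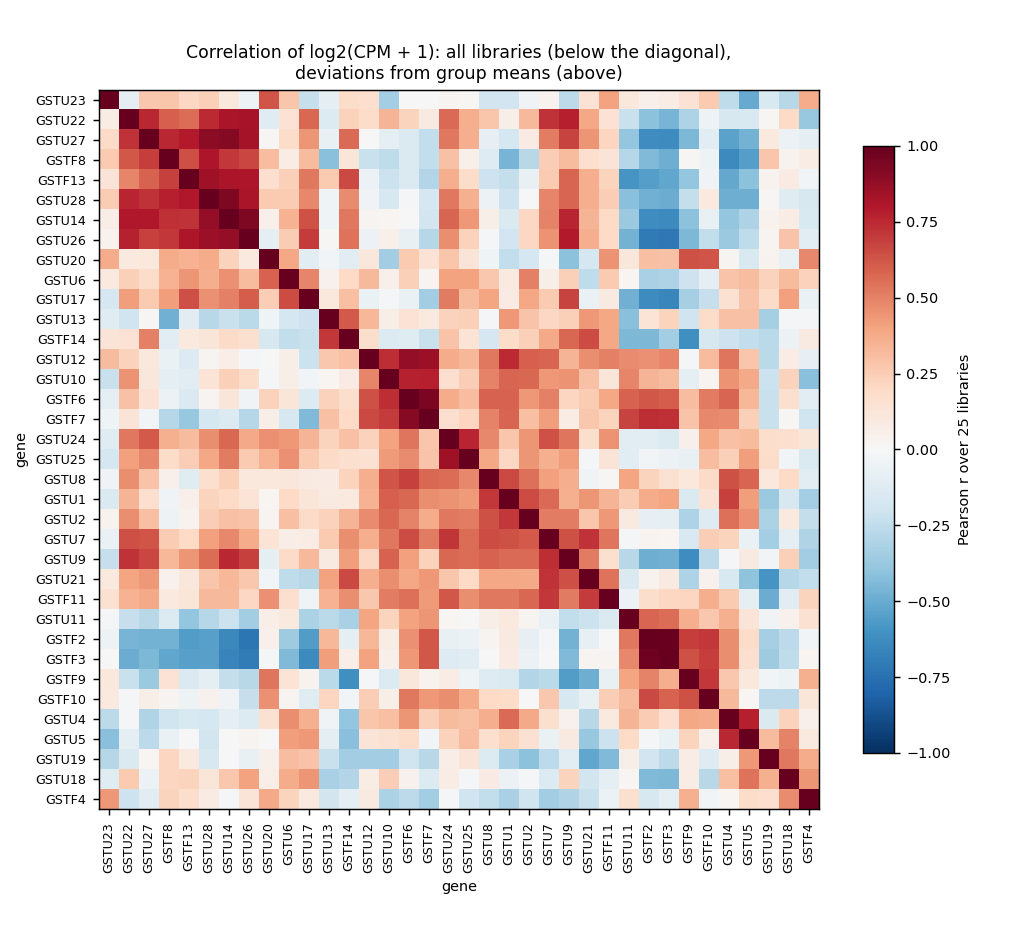
Pearson correlation of log2(CPM + 1) between the 36 members with a mean of at least 1 CPM, over 25 libraries below the diagonal and of deviations from group means above it, red for positive and blue for negative, genes ordered by average linkage. The block from GSTU22 to GSTU26 (r 0.49 to 0.88) is blue against GSTF2 and GSTF3.

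Another, looser block of 13 members held the genes that were high in Col-0 low P (GSTU24, GSTU25, GSTU9, GSTU7, GSTU10, GSTU21 and GSTF11) with GSTU1, GSTU2, GSTU8, GSTU12, GSTF6 and GSTF7, with a median r of 0.53 and of 0.44 after the group means were taken out. GSTF6 (AT1G02930), which conjugates glutathione in camalexin synthesis, was at 209.7, 202.9 and 71.8 CPM in Col-0 low P, with 83.4 and 42.6 CPM in low+P, and its groups overlapped (log2 fold change 1.3 ± 0.74, SE, adjusted p = 0.777 in edgeR). GSTF6 and GSTF7 went together at r = 0.91 and GSTU24 and GSTU25 at 0.85. Sharing a tandem array gave less: 23 members lie in 8 arrays in TAIR10.1, and the 21 pairs within an array had a median r of 0.27, against 0.14 in the 609 other pairs. The arrays as drawn split the run from GSTU1 to GSTU7. Some members next to each other by locus number, such as GSTU4 and GSTU5, were therefore among the other pairs. In the array of GSTU19 to GSTU23, GSTU19 and GSTU21 ran in opposite directions (r = -0.52).

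Genes that work with GSTs were counted from lists of 44, of which 37 were tested in low P and low+P. For the added P in Col-0, 25 of them had a log2 fold change above 0 (52.2% of all genes did), and at an unadjusted p below 0.05 there were 5 higher (beside 3.56% of genes) and 1 lower (beside 3.7%). EdgeR called 0 of them, and DESeq2 called ANAC102, AT4G01870 and DHAR1. The 5 were ABCC3, a vacuolar transporter of glutathione conjugates, UGT74E2, a glucosyltransferase of indole-3-butyric acid, AT4G01870, and the NAC factors ANAC102 and ATAF2. ANAC102 was at 76.5, 48.1 and 55.0 CPM in low P and at 23.8 and 20.3 CPM in low+P (log2 fold change 1.44 ± 0.38, SE, adjusted p = 0.416 in edgeR). AT4G01870 was at 38.3, 32.5 and 41.7 CPM against 13.6 and 5.76 CPM. DHAR1, a dehydroascorbate reductase of another GST class, was the lower one, at 377.4, 284.1 and 86.7 CPM against 1076 and 730.9 CPM. All 6 tested genes of the xenobiotic and oxylipin response list were above 0 there, 2 of them at an unadjusted p below 0.05. In phf1 and in phr1 phl1 against the same Col-0 low P libraries 0 of the 6 were above 0, and since these libraries are shared with opposite sign, the counts are not independent. The 12 genes of the lambda, zeta, theta, DHAR and TCHQD classes had 5 above 0 for the added P in Col-0, with a median of -0.23. Of the 4 genes of glutathione synthesis and reduction, 0 were at an unadjusted p below 0.05 in that comparison.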

How the data were processed

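Poly(A) RNA of roots was sequenced by the authors as non-stranded libraries with single-end reads of 50 bases. The authors discarded adaptor reads with Trimmomatic 0.36, mapped to TAIR10 with HISAT2 2.1.0 and counted reads per gene with featureCounts (version and strand setting: not given in the sources used here). The deposited values are whole-number counts, not normalized, and 3571 of 27206 genes had none. Groups came from the group name above each column, which names no replicate or plot.

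Genes were filtered with filterByExpr, scaled with TMM and tested with edgeR 4.0.16's quasi-likelihood test (R 4.3.3, prior count 0.125, Benjamini-Hochberg adjustment over all genes, calls at 0.1). The fits held the 13 low P and low+P libraries (18830 genes), 11 of Col-0 (18469), 11 of phf1 (18606) and 22 of both (19034). SE is the absolute log2 fold change over the square root of F. p-values measure the spread between these libraries. CPM uses total counts. Alternatives were DESeq2 1.42.0 (likelihood ratio test for 6 groups, otherwise Wald), RLE factors, no filter, a mean of at least 1 CPM, calls at 0.05, a fit of all 25 libraries and each library left out. Tests were tested on simulated data. No 2 libraries agreed within sampling noise (smallest median chi-square 0.824, sampling alone 0.455, genes with 20 or more summed counts).

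The members and lists were chosen with earlier results of these data known. The 23 members described singly followed a rule: the 4 most abundant of each class, GSTU9, GSTU24 and GSTU25, those with the smallest p below 0.05 for the added P in Col-0 and for phf1 against Col-0, and 6 with known roles. Others named in the text (GSTU11, GSTU14, GSTU26, GSTU28 and GSTF14 among them) were chosen after their values were seen. Sequences and lengths are from TAIR10.1 (RefSeq), which held 26719 of the identifiers. Its coordinates were left out because reads were mapped to TAIR10. Further phr1 phl1 libraries were not analysed here.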

Additional observations from a re-analysis of the deposited data

How the results depend on the processing

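No paired analysis was possible because the columns carry the group and neither the replicate number nor the plot. Depth limits the tau members at a few CPM, which rest on few counts per library, and the wide spread between replicates limits the tests in all members.

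DESeq2 called 3 members where edgeR called 0 across the 6 low P and low+P groups, 3 for the added P in Col-0, 1 for phf1 and 3 for phr1 phl1 against Col-0 in low P, and 1 for phf1 against Col-0 over 4 P regimes. Those called were GSTU24, GSTU25 and GSTU9 across the 6 groups and for the added P in Col-0, GSTU24 for phf1, GSTU24, GSTU28 and GSTU20 for phr1 phl1, and GSTU5 over 4 regimes. The cause was not tested, and GSTU24, GSTU25 and GSTU9 are among the genes that the study selected with DESeq2 on these libraries. At an unadjusted p below 0.05, DESeq2 gave 12 members for phr1 phl1 (edgeR 7) and 8 for Col-0 low P against medium P (edgeR 5), 6 against high P (edgeR 0), 3 for phf1 low P against medium P (edgeR 1) and 2 for the added P in phf1 (edgeR 1), and the fit of all 25 libraries gave 4 for the added P in Col-0 (8 in the fit of 13). The shares of all genes in these settings are not given, so that these counts do not show a rise particular to the members. Over all genes, calls at an adjusted p of 0.1 were 183 in DESeq2 and 0 in edgeR for phr1 phl1. They were 374 and 1 for Col-0 low P against medium P, and 151 and 1 against high P. For phf1 they were 3 and 0 against medium P, and 0 in both for the added P.

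With each library left out in turn, members called ranged from 0 to 3 in Col-0 low P against medium P and from 0 to 1 in phf1 against Col-0 over 4 regimes, in both cases by leaving out Col-0 medium P C. Members at an unadjusted p below 0.05 ranged from 3 to 11 for the added P in Col-0, from 5 to 10 for phf1 and from 3 to 11 for phr1 phl1 in low P, from 2 to 10 for Col-0 low P against medium P and from 0 to 8 against high P, from 0 to 6 for phf1 low P against medium P and from 0 to 5 against high P, from 0 to 2 for the added P in phf1, from 1 to 5 for the difference between the genotypes' responses, from 3 to 10 across the 6 groups and from 4 to 8 over 4 regimes. The shares of all genes with a library left out are not given at this p, so these ranges too do not show a change particular to the members.

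For the added P in Col-0 the log2 fold change turned sign when single libraries were left out in GSTF2 (-0.35 to 1.397), GSTF9 (-0.934 to 0.673), GSTF10 (-0.003 to 1.024), GSTF8 (-1.301 to 1.438), GSTU5 (-1.031 to 1.088), GSTU6 (-0.812 to 0.158), GSTU4 (-0.601 to 3.301), GSTF13 (-1.507 to 1.648) and GSTU20 (-0.354 to 0.822). For phf1 against Col-0 over 4 regimes it did so in GSTU10 (-0.169 to 0.076), GSTF9 (-0.316 to 0.096), GSTF10 (-0.13 to 0.157), GSTU7 (-0.451 to 0.002), GSTF11 (-0.253 to 0.437) and GSTF6 (-0.395 to 0.096). GSTF10 also turned there with DESeq2 (-0.001), RLE factors (-0.001) and all 25 libraries (-0.01). None of these members had an unadjusted p below 0.05 in the comparison in which it turned. Of the other values, 1276 kept their direction and side of the threshold.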
